A study of Mus musculus with 10 samples.

Results

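The interferon-induced GTPases are described here in mouse mammary tumors with and without Argonaute 1 (AGO1) in the endothelium. The group was chosen by name as 10 genes, the guanylate-binding proteins Gbp2, Gbp3, Gbp5, Gbp6, Gbp7 and Gbp9 and the immunity-related GTPases Igtp, Irgm1, Irgm2 and Iigp1, and all 10 were among the 31053 genes of the count matrices. E0771 mouse mammary carcinoma cells had been injected into the fourth mammary fat pad of female C57BL/6 mice 16 weeks old, and tumors were taken on day 21, dissociated and measured by droplet single-cell RNA-seq. EC-AGO1-KO mice (KO) carried VE-Cadherin-Cre, which is driven by the Cdh5 promoter of endothelial cells, with AGO1 flox/flox, and WT littermates served as controls. The injected tumor cells carried an intact Ago1 in both groups, so a difference in tumor-like cells is one between tumors grown in WT and KO hosts. There were 5 WT libraries from 5 tumors and 5 KO libraries from 7 tumors, since the KO libraries 2+3 and 5+6 each pooled 2 tumors. Sequencing batch 1 held 1 library of each group and batch 2 held 4.

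Interferons are secreted proteins, released by infected cells or, in the case of interferon gamma, by activated lymphocytes. Interferon gamma and type I interferons each signal through their own receptor and Jak kinases, and both routes switch on GTPases that gather on membranes of vacuoles holding pathogens. The Gbp proteins and the effector Iigp1 (Irga6) coat and disrupt such membranes, and Irgm1, Irgm2 and Igtp (Irgm3) are regulators that keep the effectors off the membranes of the cell itself. In tumors these genes are read widely as a sign that cells have met interferon.

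The promoters of the genes are shown first because they carry the DNA motifs through which interferon factors act. Of the 10 genes, 7 had a promoter in the RefSeq table of the GRCm38.p6 build, with 8 start sites in all, since Gbp3 had 2 start sites, while Gbp6, Gbp9 and Iigp1 had no entry. The 250 bases before each start were searched on both strands for GAAANNGAAA, the core of the interferon-stimulated response element, and for TTCNNNGAA, the gamma-activated site. The response element was present in 7 of the 8 windows and in each of the 7 genes, against 2.98% of 32851 promoters, and the gamma-activated site was present in 4 of the 8 against 7.02%. The last 120 bases before the start are given for 5 of the genes, 5′ to 3′ on the strand of the gene, with matches in capitals. Matches of the 2 motifs that overlap or touch run together in capitals.
Gbp7, chr3:142530216-142530335, + strand: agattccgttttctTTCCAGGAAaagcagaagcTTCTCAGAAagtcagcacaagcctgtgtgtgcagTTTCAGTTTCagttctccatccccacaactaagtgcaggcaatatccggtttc
Gbp2, chr3:142620543-142620662, + strand: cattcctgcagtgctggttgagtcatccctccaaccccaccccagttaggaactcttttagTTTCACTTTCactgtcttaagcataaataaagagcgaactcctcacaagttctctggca
Igtp, chr11:58199436-58199555, + strand: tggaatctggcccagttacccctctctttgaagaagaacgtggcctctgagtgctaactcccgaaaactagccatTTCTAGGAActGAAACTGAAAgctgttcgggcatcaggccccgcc
Irgm2, chr11:58214857-58214976, + strand: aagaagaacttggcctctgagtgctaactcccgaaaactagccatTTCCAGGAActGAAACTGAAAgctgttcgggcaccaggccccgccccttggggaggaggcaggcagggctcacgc
Irgm1, chr11:48871421-48871540, - strand: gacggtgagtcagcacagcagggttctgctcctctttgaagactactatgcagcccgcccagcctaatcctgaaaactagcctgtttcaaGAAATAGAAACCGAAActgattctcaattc
In Gbp7 the response element stood 44 to 53 bases before the start, in Gbp2 50 to 59 bases and in Igtp 25 to 34 bases before it. Igtp and Irgm2 had both motifs side by side in the same order, and Irgm1 had 2 overlapping response elements. A match describes the letters of a window and was not tested as a binding site.

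In the GENCODE vM21 annotation of mm10, Gbp2, Gbp3, Gbp5 and Gbp7 lie together on chromosome 3 between positions 142493978 and 142638008, Gbp6 and Gbp9 on chromosome 5, and Irgm1, Igtp and Irgm2 on chromosome 11. On the same strand Gbp9 overlaps Gbp8 and Gbp4, Gbp7 overlaps Gm43802 and Gbp6 overlaps Gm43302. Igtp (chr11:58199556-58207591) overlaps Irgm2 (chr11:58199618-58222782) in the same way. Reads of these genes, Gbp7 among them, may have been lost or shared between neighbours in the counting. Gbp and Irgm genes are also close copies of one another, and the counts of single members are uncertain to that extent.

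The matrices held 8323896 to 10591577 UMIs (unique molecular identifiers, 1 per captured RNA molecule) per library. A barcode counted as a cell when it held 200 to 7000 genes and no more than 10% of its UMIs were mitochondrial, which gave 65298 cells. Median depth was 3862 to 4049 UMIs per cell in batch 1 and 595 to 1142 in batch 2, and Actb took up to 17.8% of the UMIs of a library in batch 2 and under 2% in batch 1, so levels are given as UMIs per 1000000 UMIs of the class and library, Actb left out (CPM). Of 64765 distinct barcodes, 532 were kept in more than 1 library. Clusters named from marker genes gave 55062 tumor-like, 2136 myeloid-like, 1385 T-like, 841 stromal-like (fibroblast- and pericyte-like) and 218 endothelial-like cells, and 4290 cells stayed unnamed, at 5.45% ± 3.04 of the cells in WT and 5.56% ± 3.15 in KO libraries (SD, n = 5). Ago1 had 189 UMIs in the WT and 183 in the KO libraries and no UMI in endothelial-like cells of either group, so the deletion could not be checked. The tumor markers Pvt1 and Cdh13 were at 11085 and 2635 CPM in tumor-like cells of batch 2. Pvt1 was at 726 CPM in myeloid-like cells but at 5113 CPM in stromal-like and 4299 CPM in endothelial-like cells of batch 2, where it was at 64.6 and 884 CPM in batch 1. The part of this tumor RNA in the levels of the stromal-like and endothelial-like classes was not tested.

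The summed level of the GTPases had a higher median over libraries in stromal-like, myeloid-like, T-like and endothelial-like cells than in tumor-like cells. Together the 10 genes had 13966 UMIs, of which 76.8% lay in tumor-like cells, which held 87.0% of all UMIs, and 9.05% in myeloid-like cells, which held 3.88%. The median summed level over libraries was 182 CPM in tumor-like cells (82.6 to 481, 10 libraries), 406 CPM in stromal-like cells (280 to 1221, 9 libraries with at least 10 such cells), 559 CPM in myeloid-like cells (348 to 944, 10 libraries), 704 CPM in T-like cells (388 to 982, 10 libraries) and 770 CPM in endothelial-like cells (372 to 1348, 7 libraries). The ranges of neighbours in this order overlapped. Dendritic-like, B-like and epithelial-like cells, with 59, 72 and 59 UMIs of the members, had medians of 197, 217 and 248 CPM, and the WT libraries of the epithelial-like class, at 106 and 127 CPM, lay within the tumor-like range. Tumor-like and myeloid-like cells also overlapped in range, but only through KO 2+3, whose tumor-like cells reached 481 CPM. Within the stromal-like class the summed level was 227 to 797 CPM in fibroblast-like cells and 329 to 2045 CPM in pericyte-like cells, over libraries with at least 10 such cells. Barcodes of at most 50 UMIs, which hold free RNA, carried the genes at 89.1 to 92.6 CPM in batch 1 and 141 to 397 CPM in batch 2.

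**Figure D1:**
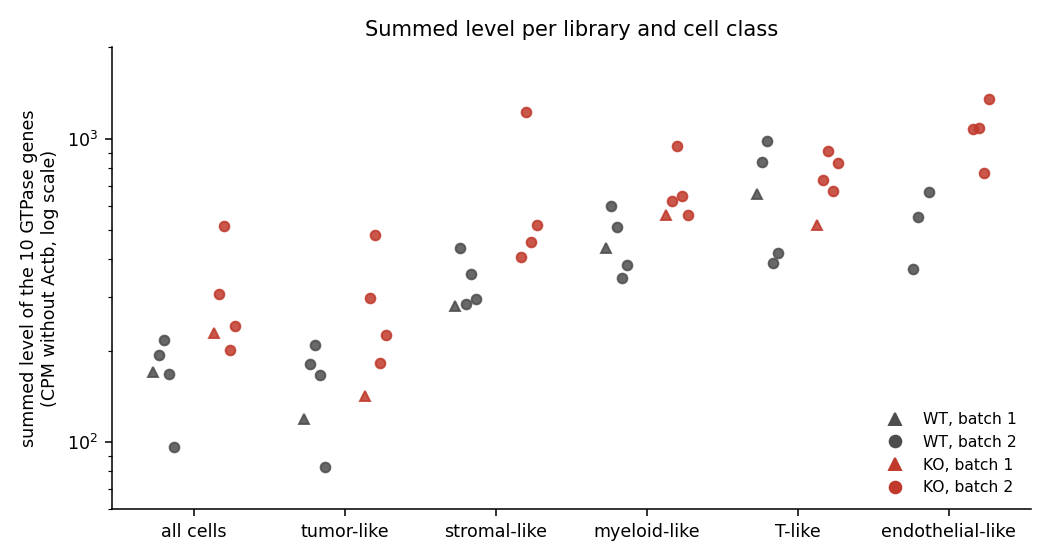
Summed level of the 10 GTPase genes in each library, in CPM on a log axis, for all cells and 5 cell classes, with WT in grey, KO in red, batch 1 as triangles and batch 2 as circles, where points need 10 cells of the class in a library. Levels run from 82.6 CPM in tumor-like cells of WT 5 to 1348 CPM in endothelial-like cells of KO 5+6, and KO 2+3 is the highest library in all, tumor-like, stromal-like and myeloid-like cells.

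Gbp7, a guanylate-binding protein, was the most abundant member by UMIs, and the mix of members differed between batches. It made up 41.3% of the members' UMIs in tumor-like cells of batch 1 and 67.1% in batch 2, and 20.3% and 55.7% in myeloid-like cells. Irgm1 took 19.1% in tumor-like cells of batch 1 and 5.19% in batch 2. Iigp1 was the leading member of myeloid-like cells of batch 1, with 25.9% of the UMIs at 130 CPM, while it took 5.00% at 6.49 CPM in the tumor-like cells of that batch. Gbp6 and Gbp9 were rare in tumor-like cells, with 27 and 64 UMIs in all 10 libraries. UMIs of a 3′ protocol are counted per molecule and were not divided by gene length.

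To ask in which cells of the same tumor the GTPases were higher, classes were compared with tumor-like cells with the library as a block (edgeR quasi-likelihood test on UMIs summed per library and class, Benjamini-Hochberg adjustment over all genes tested). In myeloid-like cells 8 of the 10 members were higher than in tumor-like cells and none was lower, against 21.9% of 13979 genes called higher, and the members' median log2 fold change was 1.65 beside -0.47 over all genes. Gbp6 and Gbp9, among the 8, reached at most 2.04 and 2.26 CPM in tumor-like libraries, below the filter on low counts. They entered the test through myeloid-like libraries alone, so being higher there was set by the filter. Their log2 differences were 3.46 ± 0.67 (SE, adjusted p = 3.62e-05) and 3.29 ± 0.49 (5.08e-07). They had only 16 and 33 UMIs in myeloid-like cells of all libraries, of which 13 and 28 lay in batch 1. Of the other members the largest differences were those of Iigp1 (3.20 ± 0.37, 2.78e-09) and Gbp5 (2.78 ± 0.28, 1.62e-10), the last a member also known for its part in inflammasome assembly. Gbp2 was 1.87 ± 0.35 higher and Irgm1, the regulator named above, 1.44 ± 0.26 higher on the log2 scale. Gbp3 (0.53 ± 0.32, adjusted p = 0.148) and Igtp (0.68 ± 0.35, 0.091) did not pass. In batch 2 alone, where myeloid-like cells had 3 to 119 UMIs of the members per library, 6 members passed and Gbp3 and Igtp were at -0.07 and -0.92. With library sizes in place of TMM normalization the median of all genes moved to -0.23 and all 10 members passed.

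In stromal-like cells Iigp1 was the member that stood out from tumor-like cells, at a log2 difference of 3.29 ± 0.32 (adjusted p = 9.81e-23, 9 libraries), and it passed under each of the 19 alternative settings. Of the 9 members tested, 4 were higher and none was lower, against 14.1% of 12781 genes called higher, and the median of the members was 0.75 beside -0.39 over all genes. Gbp2 was higher by 1.49 ± 0.45 (adjusted p = 0.00412), Gbp5 by 1.45 ± 0.62 (0.0492) and Gbp9 by 2.22 ± 0.92 (0.0444), but Gbp2 had 19, Gbp5 9 and Gbp9 4 UMIs in stromal-like cells of all libraries, of which 3, 1 and 0 lay in the batch 1 KO library, which had 9 such cells and was left out of the fit. Gbp9, at most at 2.26 CPM in tumor-like libraries, passed the filter on low counts only through stromal-like cells of 2 libraries. These were the WT library of batch 1 and KO 2+3. Being higher there was set by the filter, although Gbp9 counts among the 4. Without the 2 pooled KO libraries Iigp1 alone passed, and 2 members passed without KO 2+3, KO 4, WT 1, WT 5 or the WT library of batch 1. The log2 difference of Gbp7 was 0.44 ± 0.19 (adjusted p = 0.0545) and that of Igtp, with 4 UMIs in stromal-like cells, was -1.09 ± 0.75 (0.243).

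**Figure D2:**
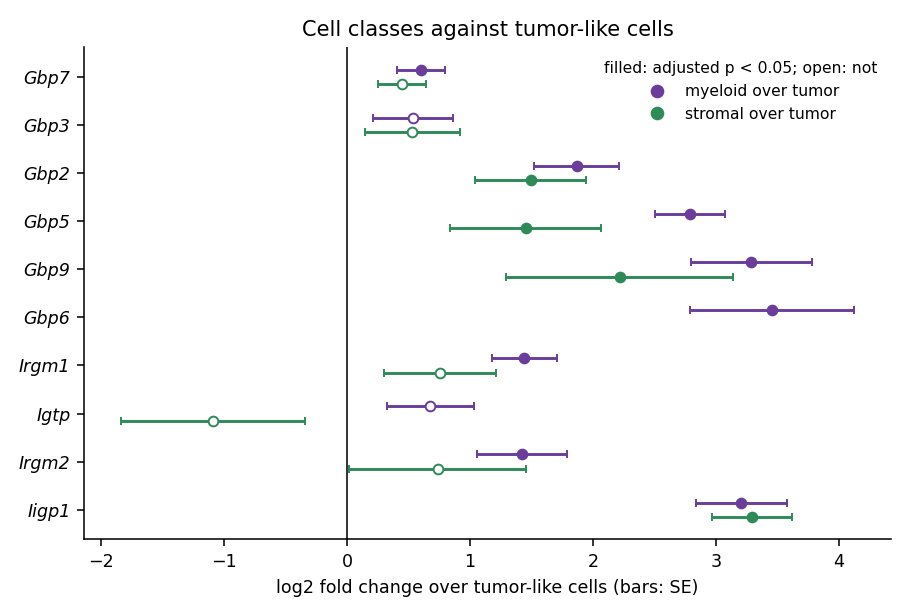
Log2 fold change of each member in myeloid-like (purple) and stromal-like (green) cells over tumor-like cells of the same libraries, with bars of 1 SE and filled points where the adjusted p is under 0.05. Iigp1 stands near 3.2 to 3.3 in both classes, while Gbp3 and Gbp7 lie between 0.44 and 0.60, and Gbp6 was not tested in stromal-like cells. Gbp6 in myeloid-like cells and Gbp9 in both classes passed the filter on low counts only through the class set against tumor-like cells.

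The main comparison asked whether the genes differed between tumors by genotype of the host. In all cells every member had a higher fitted level in KO than in WT, by a median of 0.72 on the log2 scale beside a median near 0 over all 14181 genes tested, but no member passed the correction for multiple tests and neither did any other gene (percent called, 0). Gbp6 passed the filter on low counts only through the KO library of batch 1 and KO 2+3, at 2.15 and 2.41 CPM, against at most 1.39 CPM in WT libraries. Its direction was thus tied to how it entered the test, and it is no support for a higher level in KO. Without correction 8 of the 10 members had p under 0.05, Gbp6 not among them, against 1314 genes or 9.27% of those tested. The size of the difference was 1.16 ± 0.35 for Iigp1 (SE, n = 5 per group, adjusted p = 0.443), 0.75 ± 0.26 for Gbp5 (0.443), 0.75 ± 0.32 for Gbp2 (0.506), 0.70 ± 0.25 for Gbp7 (0.456) and 0.64 ± 0.22 for Gbp3 (0.443). It was 0.04 ± 0.42 for Gbp9 (0.990), whose sign turned when KO 2+3, WT 1 or WT 5 was left out. T-like cells, with the second highest level of the 5 classes, made up 0.394% to 1.45% of cells in the WT and 1.23% to 8.07% in the KO libraries of batch 2, and myeloid-like cells, with 9.05% of the members' UMIs, made up 0.319% to 3.93% and 1.53% to 6.18% there, and 28.5% in WT and 37.6% in KO of batch 1. The part of these classes in the level of all cells was not tested. The test without a filter on low counts called 242 genes, among them Gbp2, Gbp3, Gbp7, Igtp and Iigp1, and DESeq2 called 2 genes and no member.

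Tumor-like cells showed the same direction, again short of the threshold. Of the 9 members tested, all 9 had positive fold changes, with a median of 0.66 beside 0.00 over all genes, and none passed, against 0.0078% of 12828 genes called. At an unadjusted p under 0.05 there were 6 members, and 679 genes in all. The summed level was 152 ± 50.6 CPM in WT and 266 ± 134 CPM in KO libraries (SD, n = 5).

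Gbp7 in tumor-like cells was at 130, 141, 101 and 54.2 CPM in WT 1, 3, 4 and 5 and at 204, 317, 122 and 153 CPM in KO 1, 2+3, 4 and 5+6. KO 4 fell within the WT range, and the batch 1 levels were 48.2 CPM for WT and 60 CPM for KO. The fitted difference was 0.75 ± 0.25 on the log2 scale (adjusted p = 0.897).

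Gbp3 was the only member whose KO libraries of batch 2 all lay above the WT libraries, a pattern shown by 2.46% of the genes tested. It was at 19.9, 21.0, 17.4 and 8.33 CPM in WT 1, 3, 4 and 5 and at 30.0, 38.2, 22.9 and 28.8 CPM in KO 1, 2+3, 4 and 5+6. The batch 1 libraries had 12.5 CPM (WT) and 12 CPM (KO). The log2 difference was 0.64 ± 0.23 (adjusted p = 0.897). Over all cells Gbp3 and Gbp5 showed this separation in batch 2, against 4.16% of genes.

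Iigp1, the effector with the widest fold, was at 4.79, 5.56, 10.7 and 1.97 CPM in WT 1, 3, 4 and 5, and 14.7, 29.9, 4.2 and 6.53 CPM in KO 1, 2+3, 4 and 5+6. Only KO 1 and KO 2+3 lay above the highest WT library, and KO 4 lay below 3 of the 4 WT libraries. The batch 1 libraries had 5.12 CPM (WT) and 8.1 CPM (KO). The log2 difference was 1.12 ± 0.46 (adjusted p = 0.897) and went to 0.57 without KO 2+3.

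The regulators varied in the same manner. Irgm1 was at 6.22, 11.7, 9.50 and 7.88 CPM in WT 1, 3, 4 and 5 and at 12.7, 26.5, 10.7 and 9.80 CPM in KO 1, 2+3, 4 and 5+6, with 23.3 and 26.4 CPM in WT and KO of batch 1. Its log2 difference of 0.57 ± 0.26, that of Irgm2 (0.80 ± 0.29) and that of Igtp (0.73 ± 0.33) all had an adjusted p of 0.897. KO 4 and KO 5+6 overlapped the WT range for Irgm1 and Igtp.

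Gbp2 and Gbp5 had log2 differences of 0.66 ± 0.34 and 0.63 ± 0.31, and Gbp9 had 0.16 ± 0.47. Gbp2 was at 3.64 to 8.65 CPM in the WT and 4.2 to 22.6 CPM in the KO libraries of batch 2. Gbp6 had at most 9 UMIs per library in tumor-like cells and was not tested. All 10 members were highest in KO 2+3 among the libraries of batch 2, and 9 of the 10 were lowest in WT 5. In batch 1, with 1 library per group, 7 of the 10 were higher in KO.

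**Figure D3:**
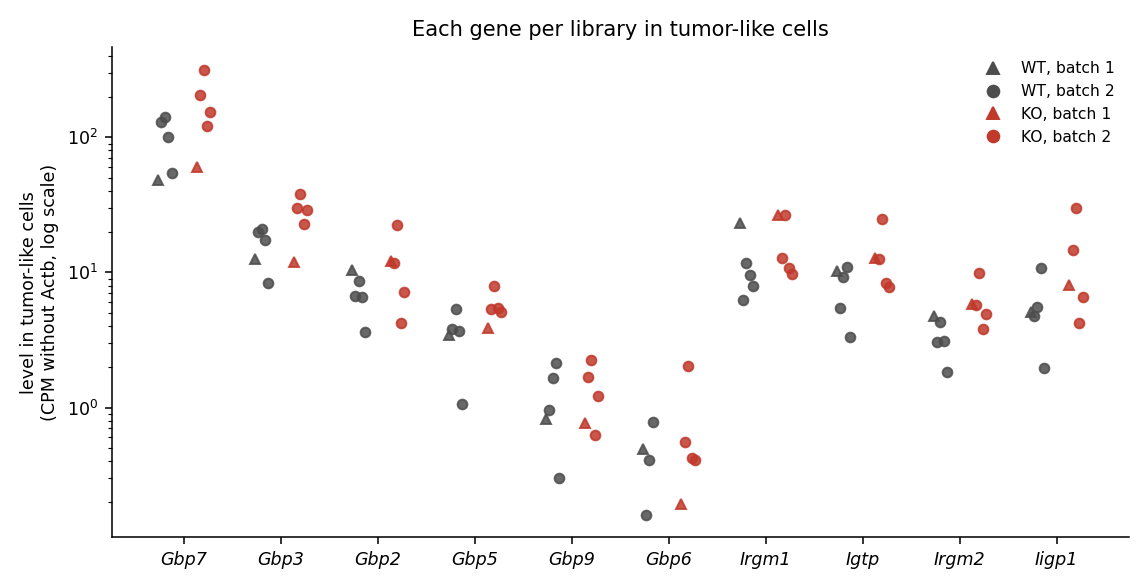
Level of each member in tumor-like cells of each library, in CPM on a log axis, with WT in grey, KO in red, batch 1 as triangles and batch 2 as circles, and libraries without a UMI not drawn. KO 2+3 is the highest circle for each gene, and Gbp7 runs from 48.2 to 317 CPM while Gbp6 and Gbp9 stay under 3 CPM.

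**Figure D4:**
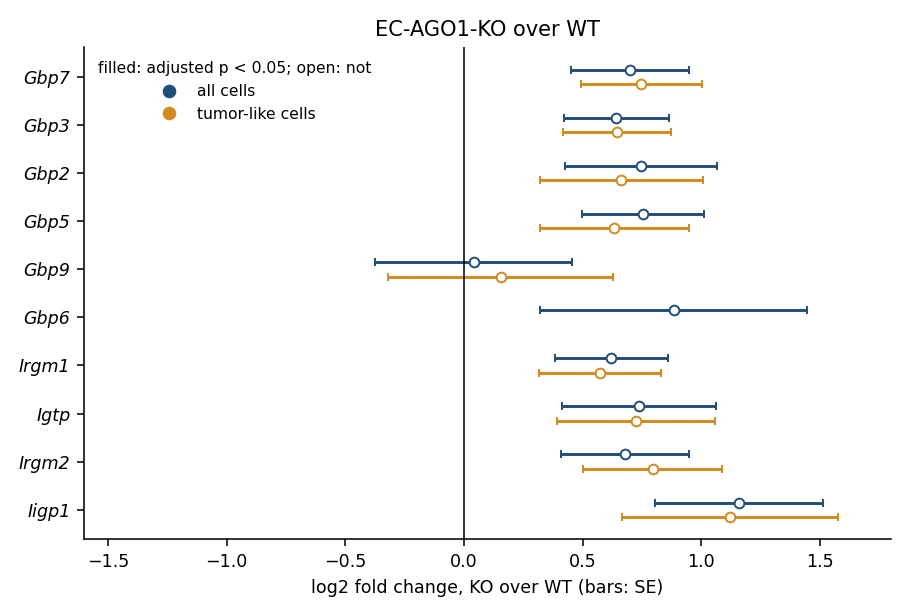
Log2 fold change of each member, KO over WT, in all cells (blue) and tumor-like cells (orange), with bars of 1 SE and open points where the adjusted p was not under 0.05. All points lie to the right of 0, Gbp9 nearest to it at 0.04 and 0.16, and none is filled. Gbp6, shown for all cells alone, passed the filter on low counts only through KO libraries.

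The difference in tumor-like cells was smaller without KO 2+3, at a members' median of 0.48 on the log2 scale, and without both pooled KO libraries, at 0.47. It was 0.51 without WT 5 and 0.83 in batch 2 alone. The main fit and that without WT 5 tested 9 members, and the others tested 8. They lacked Gbp9, the lowest in the main fit at 0.16, so their medians are not over the same members. No member passed in any of these fits. Markers of other classes were present in tumor-like cells of both groups. The 12 T markers summed to 7.59 to 12.6 CPM in WT and 10.2 to 16.6 CPM in KO libraries, all 12 had UMIs, and the 12 myeloid markers summed to 14.2 to 104 CPM and 14.5 to 91.4 CPM. The 10 dendritic markers summed to 278 to 1340 CPM in WT and 294 to 1036 CPM in KO. In stromal-like cells they summed to 280 to 1407 CPM in WT and 488 to 1073 CPM in KO. There only 4 of the 10 had UMIs, so this sum is not specific to dendritic cells. In tumor-like cells the 7 fibroblast markers summed to 68.4 to 313 CPM in WT and 77.9 to 357 CPM in KO. The 7 epithelial markers summed to 53.5 to 175 CPM and 48.9 to 170 CPM, and the 6 erythroid markers to 4.94 to 280 CPM and 3.85 to 8.87 CPM. The part of RNA from other classes in the members' levels of tumor-like cells was not tested. Subtracting free RNA, estimated at 2.26% to 7.51% of the UMIs of tumor-like cells, left the members' median at 0.71.

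In the other classes few members had enough UMIs for a test. In myeloid-like cells the summed level was 455 ± 101 CPM in WT and 667 ± 160 CPM in KO libraries (SD, n = 5), but Gbp7 alone was tested, at a log2 difference of 0.36 ± 0.23 (adjusted p = 0.995, none of 2038 genes called, percent called 0). Iigp1 in myeloid-like cells of batch 1 was at 99.8 CPM (WT) and 155 CPM (KO), and in batch 2 it had 5, 1, 0 and 4 UMIs in WT 1, 3, 4 and 5 and 1, 13, 6 and 5 UMIs in KO 1, 2+3, 4 and 5+6. In stromal-like cells Gbp7 (0.50 ± 0.32, adjusted p = 0.890) and Iigp1 (1.33 ± 0.56, 0.746) were tested with 5 WT and 4 KO libraries and did not pass, against 0.177% of 2825 genes. Iigp1 was at 33.6, 29.9, 150 and 59.3 CPM in WT 1, 3, 4 and 5 and at 50.8, 337, 133 and 78.6 CPM in KO 1, 2+3, 4 and 5+6, so the groups overlapped. It passed the filter on low counts only through KO 2+3, where it was highest, and was not tested without that library. The direction of its log2 difference was thus tied to how it entered the test and is no support for a difference. Batch 1 adds only 1 WT library to this fit, since its KO library held 9 stromal-like cells. The batch term takes up that library, so the difference between WT and KO rests on batch 2.

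The stromal-like cells held 5 called genes, among them Cxcl9, a chemokine that interferon gamma induces, which was higher in KO at 2.35 ± 0.50 (adjusted p = 0.00995). Cxcl9 had 16.8, 44.8, 59.9 and 47.5 CPM in WT 1, 3, 4 and 5, on 1, 3, 2 and 4 UMIs. In KO 1, 2+3, 4 and 5+6 it had 254, 421, 114 and 110 CPM, on 10, 20, 6 and 7 UMIs. The WT library of batch 1 had 268 CPM on 23 UMIs. As the only library of its batch in the fit it is taken up by the batch term and has no weight in this difference. The monocyte chemokine Ccl2 (1.41 ± 0.28, 0.00412) and Gm17268 (1.40 ± 0.28, 0.00412) were higher, while Nup205 of the nuclear pore (-1.98 ± 0.47, 0.0359) and the convertase Pcsk5 (-1.39 ± 0.32, 0.0235) were lower. In batch 1, whose KO library of 9 stromal-like cells was left out of the fit, 3 of the 5 called genes ran the other way, with Cxcl9 at 268 CPM (WT) and 0 CPM (KO), Ccl2 at 478 and 116 CPM and Pcsk5 at 419 and 1158 CPM. No gene was called in this class by DESeq2, in batch 2 alone, or without KO 2+3, WT 1 or WT 5, while 171 genes had an unadjusted p under 0.05. Leaving out the WT library of batch 1 gives the same fit as batch 2 alone. The 1 gene called in tumor-like cells was the haemoglobin gene Hbb-bs (-4.07 ± 0.58, 0.028), which had 122 CPM in WT of batch 1 and at most 3.86 CPM in any other library, and no gene was called without that library, the KO library of batch 1, WT 3 or KO 1.

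T-like cells had 656 ± 258 CPM of the summed members in WT and 735 ± 151 CPM in KO libraries, and Gbp7, the member tested, differed by -0.04 ± 0.24 (adjusted p = 0.987, percent called 0). In endothelial-like cells, the cells in which the Cre is active, the levels were 372, 551 and 665 CPM in WT 1, 3 and 5. They were 1080, 1084, 770 and 1348 CPM in KO 1, 2+3, 4 and 5+6. These levels rest on 4, 4 and 11 UMIs in WT and 18, 11, 10 and 22 UMIs in KO libraries, and no member was tested (percent called 0 of 227 genes). Free RNA was estimated at a median of 39.5% of the UMIs of endothelial-like cells. It was estimated at 100%, 85.9% and 15.2% in WT 1, 3 and 5. In KO 1, 2+3, 4 and 5+6 the estimates were 100%, 57.1%, 24.8% and 54.1%.

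The other genes of the interferon pathway were taken as whole lists. In tumor-like cells no list gene passed. Of the other interferon-induced GTPases 6 of 18 listed genes were tested and all 6 were positive, with a median log2 difference of 0.60. The smallest p was that of Ifi47 (Irgd), another immunity-related GTPase, at 1.10 ± 0.39 (adjusted p = 0.897). Of the type I interferon response genes 29 of 29 tested were positive, with a median of 0.42, and Ifit1, an RNA-binding antiviral protein, had the smallest p (0.90 ± 0.18, adjusted p = 0.534). Of the interferon-gamma response genes, which include antigen presentation genes, 19 of 21 were positive with a median of 0.28, led by Nlrc5, an activator of MHC class I genes (0.35 ± 0.15, adjusted p = 0.897). In all cells 11 of 11 other GTPases, 22 of 22 interferon-gamma and 29 of 30 type I response genes were positive, with medians of 0.73, 0.37 and 0.47, and none passed. These lists share inducers with the members and were chosen with earlier results of these data known.

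Genes upstream and downstream of the GTPases were near 0. Of the 16 interferon ligands, receptors and signalling genes tested in tumor-like cells 10 were positive and 6 negative, with a median of 0.04, and Stat2 was at 0.48 ± 0.17 (adjusted p = 0.897). Of the 17 targeting and effector partners, such as the autophagy conjugation genes that place Gbp and Irg proteins on membranes, 7 were positive and 10 negative, with a median of -0.05, and Tax1bp1, an autophagy receptor, was at -0.20 ± 0.11 (adjusted p = 0.897). Immediate early genes, which respond to tissue dissociation, also had positive fold changes in 8 of 9 cases with a median of 0.31, led by Fosb (0.87 ± 0.25, adjusted p = 0.897), and their part in the other differences was not tested.

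**Figure D5:**
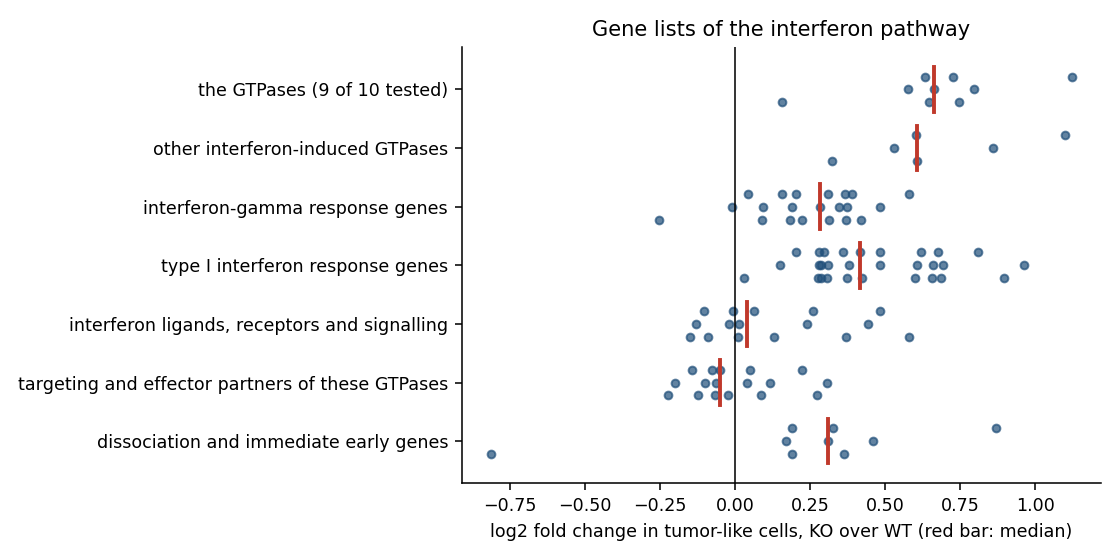
Log2 fold change, KO over WT, in tumor-like cells for each tested gene of 7 lists, one point per gene, with the median of each list as a red bar. The medians run from 0.66 for the 9 GTPases tested and 0.60 for the other GTPases to -0.05 for their targeting and effector partners.

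In myeloid-like cells the list genes did not pass either. Parp14, a type I response gene and poly-ADP-ribose polymerase family member, was at 0.79 ± 0.19 (adjusted p = 0.0877), and 11 of 15 tested genes of that list were positive. Cd74, the invariant chain of MHC class II, was at 0.77 ± 0.23 (adjusted p = 0.352), with 11 of 13 interferon-gamma response genes positive. Irf2 (0.36 ± 0.22), Jun (0.42 ± 0.23) and Atg3 (0.17 ± 0.25) had the smallest p of the signalling, immediate early and partner lists, each with an adjusted p of 0.995. None of the other interferon-induced GTPases could be tested in these cells.

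The pathway lists were also compared between myeloid-like and tumor-like cells, where 21.9% of all genes were called higher and 5825 of 13979 lower. Of the other interferon-induced GTPases 11 of 11 tested were higher in myeloid-like cells with a median log2 difference of 4.30, of the signalling genes 15 of 17 with a median of 1.64 and of the type I response genes 25 of 30 with a median of 2.18. Of the interferon-gamma response genes 15 of 23 were higher and 1 lower, with a median of 1.34, and of the partner genes 4 of 18 were higher and 5 lower, with a median of -0.08, a share of higher genes near that of all genes. Immediate early genes were higher in 8 of 10 cases, with a median of 2.86. Genes rare in tumor-like cells could enter this fit, and that of stromal-like cells, through the other class alone, and were then bound to be higher. Of the other interferon-induced GTPases only 6 were tested between WT and KO in tumor-like cells. In stromal-like cells, where 14.1% of all genes were higher than in tumor-like cells and 3059 of 12781 lower, 5 of 9 other GTPases were higher (median 2.34), 4 of 16 signalling genes (0.39), 8 of 23 interferon-gamma response genes with 5 lower (0.42), 12 of 30 type I response genes with 1 lower (0.59), none of 18 partner genes with 7 lower (-0.42) and 9 of 10 immediate early genes (2.22).

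Among tumor-like cells of batch 2 the summed level ran from 175 to 309 CPM over 7 clusters formed without the members and the interferon lists. The highest cluster, of 8186 cells, had 38.8 CPM of Gbp3 and 11.8 CPM of Gbp5. In it the fibroblast markers Col1a1 and Pdgfra were at least 2-fold above myeloid-like and T-like cells. These markers were not compared with the other tumor-like clusters. The other clusters had 13.2 to 25.8 CPM of Gbp3 and 2.32 to 5.60 CPM of Gbp5. Within each cluster the libraries spread more widely, with 73.9 to 132 CPM in the lowest library and up to 583 CPM in the highest. The tumor-like cluster of batch 1 had 130 CPM.

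The members varied together over libraries in tumor-like cells. The Pearson correlation of each member's log2 level with the sum of the other members, after subtraction of batch means, was 0.75 to 0.98 over the 10 libraries for the 9 members with at least 50 UMIs, the lowest for Gbp9 and the highest for Irgm2. The points share libraries and depth, and KO 2+3 and WT 5 stand at the ends. Of 12819 other genes tested, those with the pattern most like the sum of the members were Xaf1 (r = 0.98), Ppm1h (0.95), Ly6a (0.95), Cd274 (0.94) and Nup210l (0.93). In myeloid-like cells the same measure was -0.01 for Gbp7 and up to 0.70 for Gbp5, and the most alike of 2037 genes were Dapk1 (0.89), Lyn (0.87), Cd86 (0.87), Atp1b3 (0.85) and Picalm (0.84), with as few as 1 UMI in a library for Dapk1 and Atp1b3.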

How the data were processed

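Raw UMI counts for every gene in every barcode, empty droplets included, were the form the authors deposited, made with Cell Ranger 7.1.0 on mm10 according to the submitters' processing notes. Each library is a separate tumor or, for 2 KO libraries, a pool of 2 tumors.

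Cells were clustered at 2 levels by Leiden at resolution 1 (Python 3.11.15, scanpy 1.11.5, 2000 variable genes without the members and the interferon lists, 30 components, 15 neighbours). A cluster other than tumor-like was named when at least 3 markers of a class were 2-fold higher and their level reached 30% of the strongest cluster of the batch. Its 10 leading genes could not hold more markers of another class, and a cluster of low depth needed a marker of its own among them. A tumor-like cluster needed at least 3 tumor markers 2-fold above myeloid-like and T-like cells, without the 30% limit. The members, lists and tests were chosen with earlier results of these data known. The naming thresholds were set over several versions after clusters and pooled member levels had been seen and before any comparison of WT with KO. Doublets were not removed.

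UMIs were summed per library and class, for libraries with at least 10 cells, and tested in R 4.3.3 by edgeR 4.0.16 (quasi-likelihood, TMM, filterByExpr, batch as covariate, or library as block between classes), with an adjusted p under 0.05 as the call. Actb was left out. Scripts were tested on simulated data. Alternatives were DESeq2 1.42.0, other scaling, filters and clusterings, left-out libraries and free RNA subtraction. T-like and endothelial-like cells were also compared with tumor-like cells once, and those results were dropped because they had not been planned. Named genes were the members, the gene of each list with the smallest p, the 5 genes most like the members and called genes. The integration and cell-level tests of the study were not used.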

Additional observations from a re-analysis of the deposited data

Results flagged for a closer look

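Among the 4 WT and the 4 KO libraries of batch 2, the highest or lowest library was set against the others for the summed members in 5 groups of cells and for single members in all and tumor-like cells, in 48 groups, of which chance marks about 1 in 20. In tumor-like cells Gbp5 in KO 2+3 was at 7.92 CPM, far from 5.10, 5.40 and 5.46 CPM in the other KO libraries. In stromal-like cells the summed members in KO 2+3 were at 1221 CPM, far from 406, 456 and 519 CPM in the other KO libraries.

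The same library was high in unnamed cells, which entered the comparison of all cells but no class comparison, and in near-empty barcodes, which entered none. In the unnamed cells of batch 2 the summed members were at 512 CPM in KO 2+3, and the 4 KO libraries lay at 248 to 512 CPM against 134 to 245 CPM in the 4 WT libraries. In barcodes of at most 50 UMIs they were at 397 CPM in KO 2+3, against 141 to 291 CPM in the WT libraries of batch 2, while KO 1, 4 and 5+6 lay within the WT range at 281, 195 and 231 CPM.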

How the results depend on the processing

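Of 810 values of single members under the alternatives, 746 kept their direction and side of the threshold, 29 lost the call, 17 gained it and 18 turned direction. The cause of the changes was not tested.

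In all cells, where no gene was called, DESeq2 called 2 genes, leaving out the filter on low counts called 242 with 5 members, leaving out the pooled KO libraries called 1, and leaving out single libraries called 0 to 1. Gbp9 turned to -0.29 without the pooled KO libraries and to -0.045 without a batch term, and ranged from -0.25 to 0.28 without single libraries. In tumor-like cells 1 gene was called, 42 with 2 members (Gbp7 and Iigp1) without the filter, and 0 by DESeq2, in batch 2 alone, without a batch term, with the replicate block, with Actb kept, in cells with at least 500 genes and with free RNA subtracted. Without single libraries 0 to 1 were called, and Gbp9 ranged from -0.16 to 0.35.

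In myeloid-like cells 14 genes were called without the filter, 5 in batch 2 alone, 5 at resolution 0.5 and 0 to 4 without single libraries. In stromal-like cells none was called by DESeq2, in batch 2 alone, without the pooled KO libraries or without a batch term (0 each), while 3 were called with the replicate block, with Actb kept and in cells with at least 500 genes, 1 with free RNA subtracted and 0 to 9 without single libraries. In T-like cells 0 to 1 genes were called without single libraries, and Gbp7 turned to 0.21 without the filter, 0.13 in batch 2 alone, 0.023 with Actb kept, 0.051 at resolution 0.5 and 0.057 with interferon genes in the clustering, and ranged from -0.20 to 0.17 without single libraries.

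Against tumor-like cells, Gbp3 turned to -0.074 and Igtp to -0.92 in myeloid-like cells of batch 2 alone. In stromal-like cells with at least 500 genes 2841 genes were called in place of 4855, and Gbp7 turned to -0.18 and Irgm1 to -0.51. Members called in stromal-like cells were 2 without the filter, in batch 2 alone, with Actb kept, at resolution 0.5 and with interferon genes in the clustering, 1 without the pooled KO libraries and 2 to 4 without single libraries. At 500 genes per cell, myeloid-like, T-like and endothelial-like cells were too few for a fit.

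Replicate numbers shared by WT and KO were not taken as pairs, since the correlation of deviations was -0.18 for number 1 and -0.31 for number 4, and 0.13 for WT 3 with KO 2+3 and 0.23 for WT 5 with KO 5+6, pools that hold the same number beside another, and with the replicate block 0 members were called between WT and KO in any class. Depth limits the other classes, since filterByExpr kept 1 member in myeloid-like and T-like, 2 in stromal-like and none in endothelial-like cells.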
